A study of Mus musculus with 15 samples.

Results

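Galanin and its receptors were examined in sorted mouse islet cells. The group has 4 named genes: Gal, which encodes the peptide precursor, and the receptor genes Galr1, Galr2 and Galr3. Members were chosen by gene symbol, and 3 of the 4 were found among the 38283 genes of the expression table. Galr3 is not analysed here. All mice were on the C57BL/6 background. Alpha cells (n = 5) and beta cells (n = 4) were taken from Glu-Venus mice, in which the proglucagon promoter drives the fluorophore Venus, so that alpha cells were the fluorescent fraction and beta cells a Venus-negative one. Delta cells (n = 6) were taken from mice of genotype Sst-CreXROSA26EYFP/EYFP, in which Cre under the somatostatin promoter switches on EYFP. For delta cells, mouse line and cell type therefore cannot be told apart. Each sample was a pool of islets from several mice, sorted by flow cytometry, and its RNA was amplified before sequencing. Expression was given as FPKM, a level scaled by transcript length and by how many reads mapped in each sample.

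Galanin is a neuropeptide released by sympathetic and other nerves of the pancreas and is known as an inhibitor of insulin secretion. GALR1 and GALR3 couple to inhibitory G proteins, which lower cAMP and open G protein-gated potassium channels. GALR2 couples mainly to Gq and phospholipase C, which raise intracellular calcium, and can also signal through inhibitory G proteins.

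The samples carried the hormone transcripts of their labels. Mean expression was 273077 FPKM for Gcg (glucagon) in alpha cells, 295241 FPKM for Ins2 (insulin) in beta cells and 163268 FPKM for Sst (somatostatin) in delta cells. Each of these hormones was also present at a lower level in the other cells. The pancreatic polypeptide gene Ppy was at 17728 to 41392 FPKM in alpha cells and at 10857 to 48600 FPKM in delta cells, so neither fraction lacked it. Read totals were estimated from the smallest steps between values, which worked in 6 samples, none of them beta cells, and gave 7.47 M to 30.5 M reads. For 9 samples the depth is unknown. The summed FPKM of 84 ribosomal protein genes separated 6 samples (alpha samples 1 to 3, beta sample 2, delta samples 1 and 2), at 66048 FPKM or more, from the other 9, at 39064 FPKM or less. For Galr1 and Galr2 only, means within these sets are given beside the pooled ones.

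Galr1 was the member with the clearest difference between cell types. It was expressed in all beta cell samples and was close to 0 in most alpha and all delta cell samples. In beta cells it was at 4.76, 13.1, 4.25 and 6.76 FPKM in samples 1 to 4. In alpha cells it was at 1.06, 0.105, 0.0447, 0.119 and 0.575 FPKM in samples 1 to 5. The lowest beta cell sample was above the highest alpha cell sample, and alpha samples 1 and 5 were above the other three alpha samples. In delta cells Galr1 was at 0.0380, 0, 0.244, 0.238, 0.0827 and 0.0790 FPKM in samples 1 to 6, all below every beta cell sample.

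Mean Galr1 expression was 7.21 ± 4.06 FPKM in beta cells (SD, n = 4), 0.380 ± 0.433 FPKM in alpha cells (SD, n = 5) and 0.114 ± 0.103 FPKM in delta cells (SD, n = 6). The beta cell mean was 19.0 times the alpha cell mean (34.2 times without alpha sample 1) and 63.5 times the delta cell mean. Differences were tested with limma, a linear model with moderated variances, on log2(FPKM + 1), a scale that understates the change of genes with low values. The test covered the 14405 genes with a mean above 1 FPKM in at least 1 cell type. Galr1 passed this filter through its beta cell mean alone, and Galr2 through its delta cell mean alone. Beta cells exceeded alpha cells in Galr1 by 2.51 on the log2 scale (SE 0.323, 95% interval 1.82 to 3.19, limma adjusted p = 0.000102). An exact two-sided permutation test of the same samples gave p = 0.0159, the smallest that 4 against 5 samples allow. Delta cells were lower than beta cells on this scale (difference -2.77, SE 0.311, 95% interval -3.43 to -2.11, limma adjusted p = 1.686e-05). The exact permutation test again gave the smallest p possible, 0.00952. Galr1 was 1 of the 2 members tested that was called in each of these comparisons. Over all genes tested, 7.66% were called in beta against alpha cells, 2.84% as higher and 4.82% as lower. In delta against beta cells 14.7% were called, 11.7% as higher and 2.99% as lower.

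Alpha and delta cells are the neighbours in the order of Galr1 levels, and no difference between them was called. The difference was -0.26 (SE 0.292, 95% interval -0.88 to 0.36, limma adjusted p = 0.725, where 6.81% of all genes were called, 5.33% as higher and 1.48% as lower), the exact permutation p was 0.221, and the samples overlapped. The difference was -0.11 without alpha sample 1, -0.51 after quantile normalization and -0.84 with a pseudocount of 0.1. Exact permutation tests were run for 9 comparisons of single members. A further 6, on the difference between Galr1 and Galr2, are not used here.

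**Figure D1:**
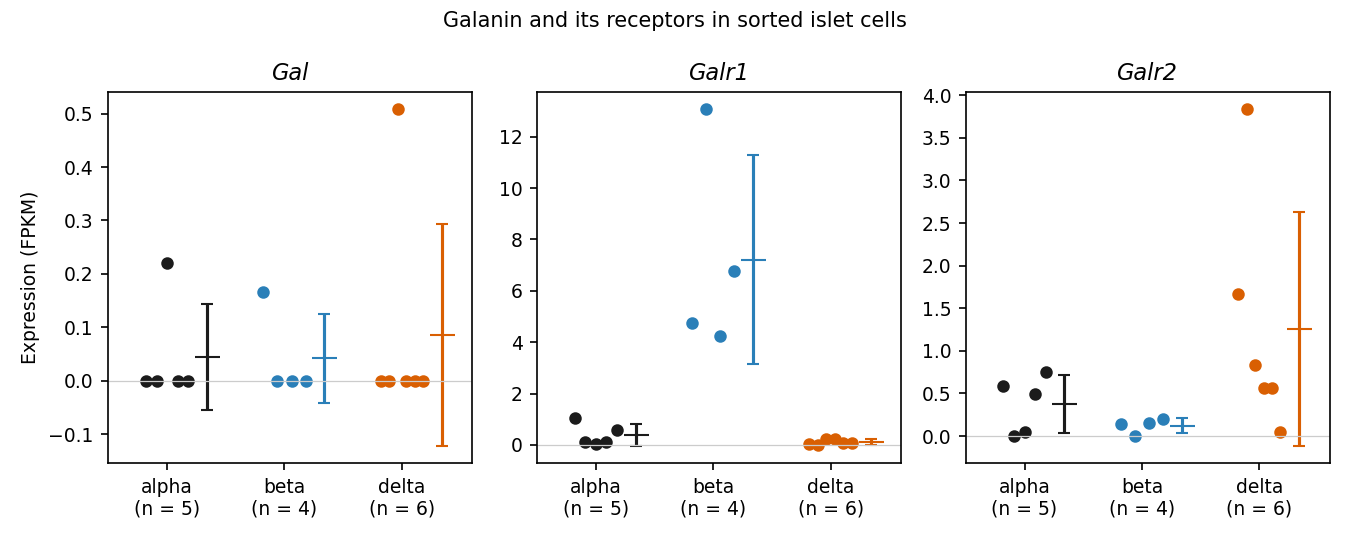
Expression of Gal, Galr1 and Galr2 in FPKM (linear axes that differ between panels) for each sample of alpha, beta and delta cells. Points are samples, and the horizontal line and bar beside them give the mean and SD. The 4 beta cell samples lie above all others for Galr1, the delta cell samples spread from 0.0453 to 3.84 FPKM for Galr2, and Gal is above 0 in 1 sample of each cell type.

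Beta sample 2 had both the highest Galr1 value and, alone among the beta cell samples, a high ribosomal protein sum. Without it the beta cell mean was 5.25 FPKM. Within the 9 samples with the lower ribosomal sum, Galr1 averaged 5.25 FPKM in beta cells (n = 3), 0.347 FPKM in alpha cells (n = 2) and 0.161 FPKM in delta cells (n = 4). In the set with the higher sum, of 6 samples, the values were 13.1 FPKM in the single beta cell sample, 0.402 FPKM in alpha cells (n = 3) and 0.0190 FPKM in delta cells (n = 2). The order beta, alpha, delta was thus the same in both sets.

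Since bulk RNA was measured, fewer cells with a transcript and less transcript per cell cannot be told apart. Insulin genes give a measure of beta cell RNA in the other fractions. As a percentage of its beta cell mean, Ins2 was at 1.87% in alpha cells and 1.95% in delta cells, and Ins1 at 2.52% and 2.08%. Ucn3 (urocortin 3), a marker of mature beta cells, was at 0.907% and 1.23%, and the glucose transporter gene Slc2a2 at 0.779% and 1.07%. Mafa, a beta cell transcription factor with a low beta cell mean of 3.12 FPKM, was at 3.06% in alpha cells, with a range from 0% to 11.5%, and at 4.08% in delta cells. Galr1 was at 5.27% of its beta cell mean in alpha cells, with a range from 0.620% to 14.6%, and at 1.57% in delta cells. The highest alpha cell sample for Galr1, sample 1, was also the highest for Ins2, at 9094 FPKM against 2634 to 5502 FPKM in the other alpha cell samples. It was also the highest for Ins1 and Ucn3, but not for Slc2a2, at 2.81 FPKM against 2.98 FPKM in alpha sample 2, or for Mafa, at 0 FPKM against 0.358 FPKM in alpha sample 4. The part of beta cell RNA in the alpha cell Galr1 values was not tested.

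Galr1 lies on the minus strand of chromosome 18 (GRCm38, GENCODE M21), with 1 annotated transcript of 2987 nt in 3 exons and no overlapping gene. In the samples with resolved depth, its values correspond to about 2 reads in alpha sample 2, 41 in alpha sample 5, 1 in delta sample 1, 0 in delta sample 2, 21 in delta sample 3 and 17 in delta sample 4. The low values of alpha sample 5 and delta samples 3 and 4 thus rest on more than a few reads each. Those in the shallower samples do not.

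Galr2 had its highest mean in delta cells, but the samples were spread widely and no comparison passed the adjusted threshold. In delta cells it was at 1.67, 3.84, 0.838, 0.564, 0.564 and 0.0453 FPKM in samples 1 to 6. In alpha cells it was at 0.586, 0, 0.0461, 0.492 and 0.756 FPKM in samples 1 to 5. In beta cells it was at 0.140, 0, 0.158 and 0.194 FPKM in samples 1 to 4. Delta samples 1 to 3 were above every alpha and beta cell sample, delta samples 4 and 5 were above every beta cell sample, and delta sample 6 lay among the lowest values of all.

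Mean Galr2 expression was 1.25 ± 1.37 FPKM in delta cells (SD, n = 6), 0.376 ± 0.336 FPKM in alpha cells (SD, n = 5) and 0.123 ± 0.0850 FPKM in beta cells (SD, n = 4). The delta cell mean was 10.2 times the beta cell mean, or 5.99 times without delta sample 2. On the log2(FPKM + 1) scale delta cells exceeded beta cells by 0.82 (SE 0.372, 95% interval 0.04 to 1.61). This difference had an unadjusted limma p of 0.0416 and an adjusted limma p of 0.156. The exact two-sided permutation test gave p = 0.0381. The difference was 0.41 after quantile normalization and 2.07 with a pseudocount of 0.1. Against alpha cells the delta cell difference was 0.56 (SE 0.349, 95% interval -0.18 to 1.30, limma adjusted p = 0.479, exact permutation p = 0.143). Between beta and alpha cells it was -0.26 (SE 0.386, 95% interval -1.08 to 0.56, limma adjusted p = 0.737, exact permutation p = 0.238). Without delta sample 2 the difference of delta from alpha cells was 0.31, and after quantile normalization it was 0.20. The samples overlapped in all 3 comparisons, and the intervals leave room for differences of more than 1 on the log2 scale.

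The delta cell mean of Galr2 rested largely on delta sample 2, without which it was 0.737 FPKM, under the 1 FPKM of the filter. Delta samples 1 and 2 are also those with the higher ribosomal sum. Within that set Galr2 averaged 2.76 FPKM in delta cells (n = 2) and 0.211 FPKM in alpha cells (n = 3), and was 0 in the beta cell sample. Within the lower set the order of delta and alpha cells turned, with 0.503 FPKM in delta cells (n = 4), 0.624 FPKM in alpha cells (n = 2) and 0.164 FPKM in beta cells (n = 3). Beta cells had the lowest mean in both sets. Ppy was also highest in delta samples 1 and 2, at 30339 and 48600 FPKM, against 10857 to 14596 FPKM in the other delta samples. Among alpha cells Ppy was highest in sample 2, at 41392 FPKM, where Galr2 was at 0 FPKM. Whether Ppy and Galr2 levels are linked was not tested. Markers of exocrine cells were also detected. The 5 acinar markers summed to 2.76 to 481 FPKM in delta, 0.122 to 78.6 FPKM in alpha and 0.0447 to 14.8 FPKM in beta cells. The 4 duct markers summed to 1.42 to 4.06 FPKM in delta, 0.119 to 4.27 FPKM in alpha and 0.00770 to 1.13 FPKM in beta cells. They did not move together. Krt19, a duct keratin, was at 0 in every delta cell sample and averaged 1.96 FPKM in alpha and 0.276 FPKM in beta cells (limma adjusted p = 0.0543 for delta against alpha cells and 0.664 for delta against beta cells). Cftr was at 0 in all alpha and beta cells and averaged 0.270 FPKM in delta cells, and Muc1 averaged 0.0528, 0.138 and 0.950 FPKM in alpha, beta and delta cells. Sox9, a duct transcription factor, was at 1.29 FPKM in delta against 0.00229 FPKM in alpha and 0.00844 FPKM in beta cells (limma adjusted p = 0.0181 and 0.0174). The part of these cells in the delta cell values was not tested.

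Galr2 lies on the plus strand of chromosome 11 (116280939 to 116283938, GRCm38, GENCODE M21), with 2 transcripts, the longest of 1940 nt in 2 exons, and no overlapping gene. Its values correspond to about 32 reads in delta sample 1, 67 in delta sample 2, 44 in delta sample 3, 25 in delta sample 4, 33 in alpha sample 5 and 0 in alpha sample 2. The 4 delta samples with resolved depth thus each held more than a few Galr2 reads.

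**Figure D2:**
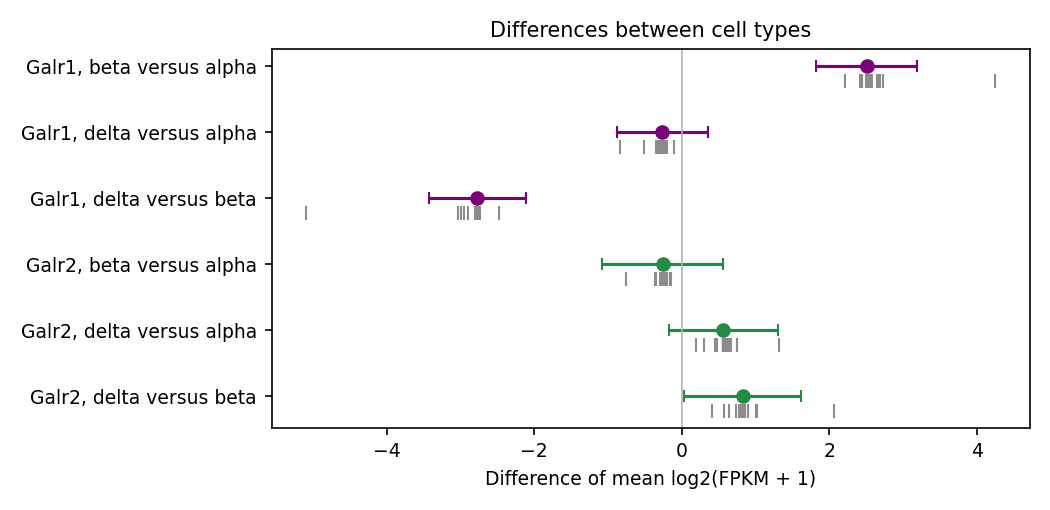
Differences of mean log2(FPKM + 1) between cell types for Galr1 (purple) and Galr2 (green), with the first named cell type minus the second. Circles and bars give the limma estimate and its 95% interval, and grey ticks give the estimate under each other setting and with each sample left out. The Galr1 differences that involve beta cells lie at 2.51 and -2.77, with every tick on the same side of 0.

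The 2 receptors were then set against each other within each sample, as Galr1 minus Galr2 on the log2(FPKM + 1) scale. FPKM is scaled by transcript length, but the RNA was amplified before sequencing, so levels of different genes compare only roughly. With 1 added to each value, a difference between low values is also not a log ratio. Alpha sample 4, at 0.119 FPKM for Galr1 and 0.492 FPKM for Galr2, had a difference of -0.41. Galr1 exceeded Galr2 in all 4 beta cell samples, by 2.18 to 3.82 with a mean of 2.76 (SD 0.74). In delta cells Galr2 exceeded Galr1 in 5 of 6 samples, with differences from -2.27 to 0.05 and a mean of -0.84 (SD 0.84). Delta samples 1 and 2, with the higher ribosomal sum, were at -1.36 and -2.27, against -0.56 to 0.05 in the other delta samples. Alpha cells had neither receptor ahead, with Galr1 higher in 2 of 5 samples, differences from -0.41 to 0.37 and a mean of -0.01 (SD 0.30). The beta cell range did not overlap the others, whereas the alpha and delta cell ranges did.

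**Figure D3:**
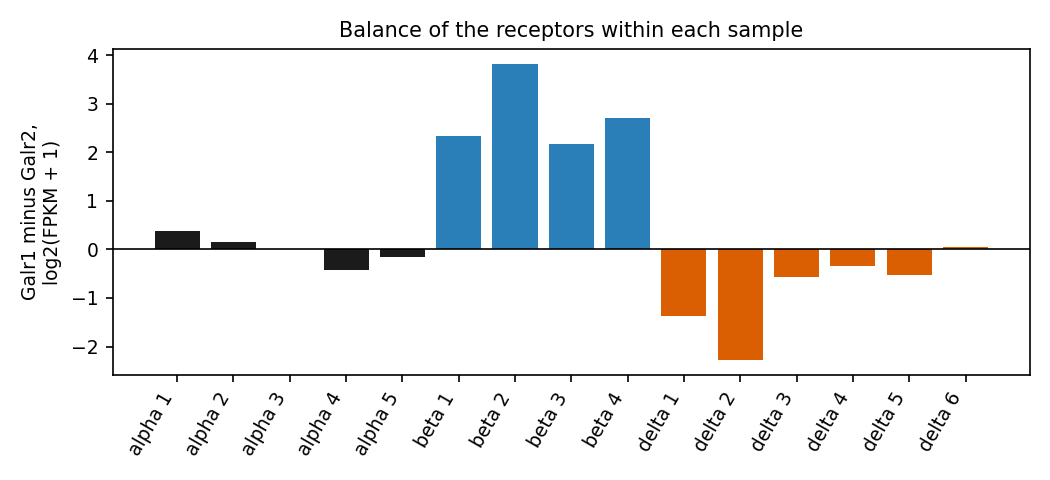
Galr1 minus Galr2 in each sample, on the log2(FPKM + 1) scale, with alpha cells in black, beta cells in blue and delta cells in orange. Bars above 0 are samples with more Galr1 than Galr2. All 4 beta cell bars are at 2.18 or more, and 5 of the 6 delta cell bars are below 0.

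Gal itself was listed at 0 in 12 of the 15 samples. It was at 0.220 FPKM in alpha sample 3, at 0.167 FPKM in beta sample 1 and at 0.509 FPKM in delta sample 3. These are single samples, and each cell type had 1. The means were 0.0441 ± 0.0985 FPKM in alpha cells (SD, n = 5), 0.0416 ± 0.0833 FPKM in beta cells (SD, n = 4) and 0.0848 ± 0.208 FPKM in delta cells (SD, n = 6). Gal did not pass the filter, and the exact permutation test gave p = 1 in each of the 3 comparisons. The differences on the log2(FPKM + 1) scale were 0.04 between delta and alpha cells, 0.04 between delta and beta cells and -0.00190 between beta and alpha cells. None of these had a fixed sign. Without delta sample 3 the first was -0.0575 and the next -0.0556, and the last was 0.0216 after median-ratio scaling.

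Gal lies on the minus strand of chromosome 19 (3409915 to 3414544, GRCm38, GENCODE M21) and has 2 transcripts of 672 and 788 nt, the longer in 6 exons. The value in delta sample 3 corresponds to about 7 to 9 reads, depending on the transcript. In the 5 samples of resolved depth in which Gal was listed at 0, 3 reads would have given 0.200 to 0.851 FPKM. A floor of 3 reads covers counting error only, and values of 1 or 2 reads can be listed above 0, as they were for Galr1.

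Galanin in the pancreas is known from nerve fibres, so markers of neurons and glia were read in the same samples. Of the neuronal markers, Prph, Dbh and Chat were at 0 in all 15 samples, and the summed neuronal markers reached at most 0.350 FPKM. Sox10, a transcription factor of glia, was at 0 in all samples but delta sample 3, where it was at 0.0134 FPKM. Delta sample 3 was also the sample with the highest Gal value, and whether these are linked was not tested.

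The other peptides and receptors of the extended family were low. Galp, which encodes galanin-like peptide, was at 0 in all 15 samples. Spx, which encodes spexin, a further ligand of galanin receptors, was above 0 in 1 beta cell sample, at 0.313 FPKM. Kiss1, which encodes the related peptide kisspeptin, averaged 0.806 FPKM in alpha, 0.976 FPKM in beta and 1.89 FPKM in delta cells. It was the only one of these genes to pass the filter and was called in no comparison (limma adjusted p = 0.814, 0.326 and 0.398 for beta against alpha, delta against alpha and delta against beta). Kiss1r, the kisspeptin receptor gene, averaged 0.094, 0.343 and 0.617 FPKM in alpha, beta and delta cells.

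Genes around the receptors were taken as lists of 72 genes besides the members, of which 36 passed the filter. Of these 36, 8 differed at the adjusted threshold in beta against alpha cells, with 3 of them above and 5 below the alpha cell level. In delta against alpha cells 10 did, 7 above and 3 below, and in delta against beta cells 13 did, 11 above and 2 below. These counts are 22.2%, 27.8% and 36.1% of the tested list genes, against 7.66%, 6.81% and 14.7% of all genes. The median differences of the list genes were -0.01, 0.59 and 0.74 on the log2 scale, against -0.13, 0.13 and 0.30 for all genes. The balance in delta against beta cells depends on scaling. Of all genes called there 79.61% were higher, against 51.55% with median-ratio scaling. Under median-ratio and quantile scaling the list lost Kcnj6, Kcnj11, Sstr3 and Gabbr1, all above, and gained Adra2a, which was below.

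Of 6 genes listed for prohormone processing, all were tested and only Pcsk1 was called. It encodes prohormone convertase 1/3 and averaged 1.05 FPKM in alpha, 138 FPKM in beta and 16.3 FPKM in delta cells, with no overlap between any pair of cell types. Beta cells exceeded alpha cells by 5.92 (limma adjusted p = 3.46e-07), and delta cells were lower than beta cells (difference -2.79, limma adjusted p = 0.0002334). The other convertase gene, Pcsk2, was at 215 to 368 FPKM in the cell type means and was called in no comparison.

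Of the inhibitory G protein alpha subunits, 5 of 5 were tested and Gnai1 was called. It averaged 46.0 FPKM in alpha, 9.44 FPKM in beta and 5.30 FPKM in delta cells, with differences from alpha cells of -2.61 (limma adjusted p = 0.00603) and -2.86 (limma adjusted p = 0.000982). Gnao1 averaged 86.5 FPKM in alpha, 167 FPKM in beta and 146 FPKM in delta cells and was called in no comparison. Gnai2, at 49.5, 46.3 and 101 FPKM, was likewise not called. Neither the 2 tested alpha subunits of the Gq family nor the 3 tested phospholipase C beta genes, through which GALR2 signals, were called in any comparison. The Gq family gene Gna11, at 19.9 FPKM in delta and 10.96 FPKM in beta cells (difference 0.95, limma adjusted p = 0.0779), was called under quantile scaling (limma adjusted p = 0.0384) and without beta sample 2 (limma adjusted p = 0.0217).

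Adenylate cyclases make the cAMP that inhibitory G proteins lower. Of 5 tested, none was called between beta and alpha cells, 2 were higher in delta than alpha cells and 3 higher in delta than beta cells. These are 0%, 40% and 60% of the 5, against 7.66%, 6.81% and 14.7% of all genes. Adcy2 averaged 2.05 FPKM in delta cells against 0.0574 FPKM in alpha and 0.00818 FPKM in beta cells, and its difference from beta cells was 1.59 (limma adjusted p = 0.000182). Adcy8, a calcium-stimulated cyclase, averaged 2.52 FPKM in delta cells against 0.0223 and 0.00638 FPKM in alpha and beta cells, and its difference from beta cells was 1.78 (limma adjusted p = 0.000104). Adcy6 was at 8.17 FPKM in delta and 1.81 FPKM in beta cells, a difference of 1.65 (limma adjusted p = 0.0116).

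G protein-gated potassium channels are opened by inhibitory receptors, and 2 of their 4 subunit genes were tested. Kcnj3 averaged 9.97 FPKM in alpha, 0.0269 FPKM in beta and 3.35 FPKM in delta cells. Beta cells were lower than alpha cells (difference -3.33, limma adjusted p = 5.475e-06), and delta cells exceeded beta cells by 2.04 (limma adjusted p = 0.000316). Kcnj6 averaged 4.79, 0.713 and 3.94 FPKM in alpha, beta and delta cells. Its difference was -1.64 between beta and alpha cells (limma adjusted p = 0.0173) and 1.43 between delta and beta cells (limma adjusted p = 0.0168). The cell type with the most Galr1 thus had the lowest level of both tested channel subunits. The other two did not pass the filter. Kcnj5 averaged 0 FPKM in alpha, 0.216 FPKM in beta and 0.0671 FPKM in delta cells, and Kcnj9 averaged at most 0.0355 FPKM in any cell type. The KATP channel genes Kcnj11 and Abcc8, which couple metabolism to membrane potential, were expressed in all 3 cell types, and of them Kcnj11 was called, with 28.2 FPKM in delta and 10.2 FPKM in beta cells (difference 1.38, limma adjusted p = 0.0196). The calls of Kcnj6 and Kcnj11 between delta and beta cells were lost under both median-ratio and quantile scaling. Those of Kcnj6 were lost without beta sample 1 (limma adjusted p = 0.0528 against alpha cells and 0.0510 against delta cells), and that of Kcnj11 without beta sample 4 (limma adjusted p = 0.0542) and with the replicate block (limma adjusted p = 0.0786).

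Galr1 was then placed among other receptors that couple to inhibitory G proteins. In beta cells it ranked 4 of 32 by mean FPKM, with Galr1 itself counted, behind Gabbr2 (11.1 FPKM), a GABA-B receptor subunit, Sstr3 (9.03 FPKM), a somatostatin receptor, and Adra2a (7.72 FPKM), the alpha-2A adrenergic receptor. It ranked 8 of 32 in alpha cells and 14 of 32 in delta cells. Among all 38283 genes Galr1 ranked 5571 in beta cells. Galr2 ranked 8 of 32 in the same list in every cell type. Among all genes it ranked 14248 in alpha, 15791 in beta and 12295 in delta cells.

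Of the other 31 inhibitory receptors, 10 were tested. In beta against alpha cells 2 were higher and 2 lower, in delta against alpha cells 4 were higher and 1 lower, and in delta against beta cells 5 were higher and 1 lower. These are 40%, 50% and 60% of the 10, against 7.66%, 6.81% and 14.7% of all genes. Adra2a, like Galr1, had its highest mean in beta cells, with 0.466 FPKM in alpha and 3.56 FPKM in delta cells. Its difference was 2.57 between beta and alpha cells (limma adjusted p = 0.000169) and 1.68 between delta and alpha cells (limma adjusted p = 0.00252). Gabbr2 averaged 3.19 FPKM in alpha and 0.720 FPKM in delta cells, and differed by 2.07 between beta and alpha cells (limma adjusted p = 0.0331) and by -2.76 between delta and beta cells (limma adjusted p = 0.00237). These were the 2 receptors of the list called as higher in beta than alpha cells. The Gabbr2 call was near the threshold, since alpha and beta cell samples overlapped and it was lost without any one of alpha samples 1, 2, 4 and 5, beta samples 2, 3 and 4 and delta sample 4 (limma adjusted p = 0.0503 to 0.0841). Cnr1, a cannabinoid receptor, averaged 1.59 FPKM in beta and 0.00519 FPKM in alpha cells without overlap, a difference of 1.15 (limma adjusted p = 0.0660). It was called with median-ratio scaling, quantile scaling and the ribosomal covariate (limma adjusted p = 0.0129, 0.0164 and 0.0300) and without beta sample 1 or 3 (limma adjusted p = 0.0415 and 0.0136). Adora1 differed by 1.13 between beta and alpha cells (limma adjusted p = 0.119). It was called with median-ratio scaling, with the ribosomal covariate and without delta sample 2 (limma adjusted p = 0.0424, 0.0251 and 0.0421). Between delta and beta cells, Adra2a differed by -0.89 (limma adjusted p = 0.0895) and was called under both other scalings (limma adjusted p = 0.0111 and 0.00541) and without beta sample 3 (limma adjusted p = 0.0395).

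Other inhibitory receptors were highest in alpha or delta cells. Oprl1, which encodes the nociceptin receptor, was listed at 0 in all 4 beta cell samples and averaged 3.16 FPKM in alpha and 4.31 FPKM in delta cells (limma adjusted p = 0.00181 against alpha cells and 0.000277 against delta cells). Sstr2, a somatostatin receptor known for inhibiting glucagon secretion, averaged 2.51, 0.0154 and 0.374 FPKM in alpha, beta and delta cells. It was lower than in alpha cells both in beta cells (difference -1.70, limma adjusted p = 0.00342) and in delta cells (difference -1.28, limma adjusted p = 0.0104), where the samples overlapped. Chrm4, a muscarinic receptor, was at 6.52 FPKM in delta cells against 0.663 FPKM in alpha and 0.373 FPKM in beta cells. Adora1, an adenosine receptor, was at 4.28 FPKM in delta, 1.40 FPKM in beta and 0.0537 FPKM in alpha cells (delta minus alpha difference 2.07, limma adjusted p = 0.00216). The calls of Sstr3 and Gabbr1 between delta and beta cells, with differences of 1.02 and 1.32, were lost under both other scalings, with the replicate block (limma adjusted p = 0.0974 and 0.0775) and without beta sample 4 (limma adjusted p = 0.0985 and 0.127). They were also lost without beta sample 3, delta sample 1 or delta sample 5 for Sstr3 (limma adjusted p = 0.0529 to 0.0567) and without beta sample 1 or delta sample 1, 2 or 6 for Gabbr1 (limma adjusted p = 0.0531 to 0.0879). That of Sstr1 between delta and alpha cells was lost under quantile scaling (limma adjusted p = 0.0714).

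**Figure D4:**
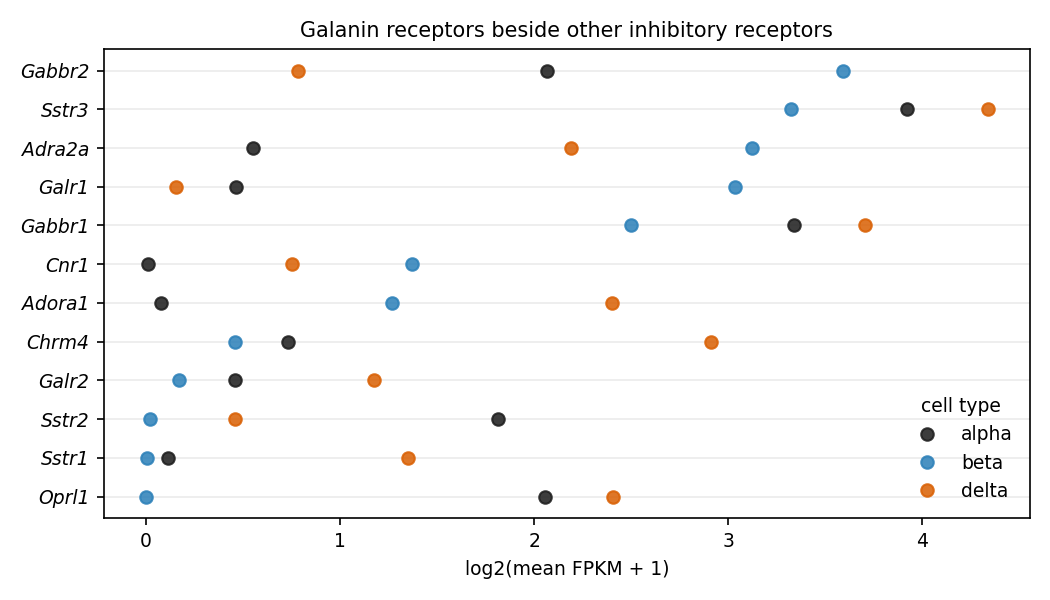
Mean expression, as log2(mean FPKM + 1), of Galr1, Galr2 and the 10 other tested receptors that couple to inhibitory G proteins, in alpha (black), beta (blue) and delta (orange) cells, ordered by the beta cell mean. Galr1 ranks 4 in beta cells with a mean of 7.21 FPKM, and its alpha and delta cell points lie at 0.380 and 0.114 FPKM.

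The 5 tested genes with the pattern most like that of Galr1 over the 15 samples, by Pearson's r on log2(FPKM + 1), were S100z (r = 0.986), St8sia1 (r = 0.982), Gad1 (r = 0.979), Car10 (r = 0.978) and Tmem215 (r = 0.978). All had their highest mean in beta cells, from 5.40 FPKM for St8sia1 to 48.0 FPKM for Tmem215. Gad1, which encodes a GABA-synthesising glutamate decarboxylase, was at 22.6 FPKM in beta, 0.292 FPKM in alpha and 0.160 FPKM in delta cells. These correlations describe samples that fall into cell types. For Galr2 they were Urb1 (r = 0.961), Dcaf15 (r = 0.905), Ascl4 (r = 0.896), Apoc3 (r = 0.888) and Nat14 (r = 0.887), each with its highest mean in delta cells, from 1.14 FPKM for Ascl4 to 4.24 FPKM for Apoc3. Apoc3, which encodes an apolipoprotein, was listed at 0 in every sample of alpha or beta cells. Galr2 itself was called in no comparison. Its highest values, 1.67 and 3.84 FPKM, were in delta samples 1 and 2, both with the higher ribosomal sum. How far these samples carry the correlations was not tested.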

How the data were processed

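The authors aligned single-end reads to GRCm38 with TopHat and computed FPKM with Cufflinks (versions 2.0.8 and 2.2.1 in the submitters' processing notes), and deposited 1 table of FPKM per gene and sample. Read counts were not used here, so no count test was run. No column lacked a sample. Cell types and replicate numbers were taken from the sample labels. limma 3.58.1 (R 4.3.3, eBayes with trend) was fitted over all 15 samples to log2(FPKM + 1), with cell type as the only term. Genes with a mean above 1 FPKM in at least 1 cell type were tested, with Benjamini-Hochberg adjustment over all of them and a threshold of 0.05. Members were also tested by two-sided exact permutation of samples (SciPy 1.17.1, Python 3.11.15). Samples were pools of mice, and p-values measure the spread between pools. The fit was tested on simulated data. Depth was read from steps of single reads in 5024 genes with 1 transcript, less 200 nt of its length, and is approximate. The ribosomal protein limit was 50000 FPKM.

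Gene models are from GENCODE M21. Named genes are the members, the 5 genes most alike to each tested member, hormone genes, cell type markers and genes of the lists, chiefly those with an adjusted p under 0.05. Some of the marker genes are not reported here. Members and lists were chosen with earlier results of these data known. Alternatives were a pseudocount of 0.1, a filter at 0.1 FPKM, no filter, fits of the 2 cell types alone, the replicate block, median-ratio and quantile scaling, the ribosomal set as a covariate and each sample left out.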

Additional observations from a re-analysis of the deposited data

Results flagged for a closer look

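Gal stood out within each cell type because 1 sample was far from the others, all of which were listed at 0. These were alpha sample 3 at 0.220 FPKM, beta sample 1 at 0.167 FPKM and delta sample 3 at 0.509 FPKM. Of 12 groups of values examined in this way 3 stood out. The expected number of about 0.6 is no guide for groups with most values at 0. A gene at 0 in all samples but 1 meets this criterion at any value.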

How the results depend on the processing

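Galr1 and Galr2 kept their direction and their side of the threshold in all 3 comparisons under the 8 other settings and with each sample left out. For Galr1 the difference ranged from 2.51 to 4.25 between beta and alpha cells (limma adjusted p from 2.078e-06 to 0.00752) and from -5.09 to -2.77 between delta and beta cells (limma adjusted p from 1.346e-07 to 0.00117). The differences of 4.25 and -5.09 were those with a pseudocount of 0.1. With single samples left out the ranges were 2.21 to 2.69 and -2.95 to -2.47. Under other settings and with single samples left out, Galr1 between delta and alpha cells ranged from -0.84 to -0.21 and from -0.35 to -0.11. For Galr2 these ranges were -0.75 to -0.15 and -0.37 to -0.16 between beta and alpha cells, 0.20 to 1.32 and 0.31 to 0.75 between delta and alpha cells, and 0.41 to 2.07 and 0.57 to 1.01 between delta and beta cells. The limma adjusted p of Galr2 between delta and beta cells ranged from 0.106 to 0.499 under other settings and from 0.0591 to 0.234 with single samples left out. Gal differed between beta and alpha cells by 0.0177 with a pseudocount of 0.1 and by 0.0216 with median-ratio factors, against -0.00190. With single samples left out its difference ranged from -0.0575 to 0.0556 there, from -0.0575 (without delta sample 3) to 0.0989 between delta and alpha cells and from -0.0556 (without delta sample 3) to 0.0989 between delta and beta cells. With no filter its differences were those reported, with limma adjusted p of 1, 0.915 and 0.874. It is below both filters, and the remaining settings were not run for it. The 1104 calls between beta and alpha cells became 520 in a fit of those cells alone, 2075 with median-ratio factors, 1970 after quantile normalization, and 698 (without beta sample 4) to 1743 (without beta sample 2) with single samples left out. The cause was not tested. The share of calls that were higher in the first cell type was 37.05%, 78.3% and 79.6% for beta against alpha, delta against alpha and delta against beta, against 52.6%, 67.8% and 51.6% with median-ratio factors and 47.6%, 56.8% and 50.9% after quantile normalization. With the replicate number as a block, 1227, 831 and 2001 genes were called, and Galr1 differed by 2.53 between beta and alpha cells (limma adjusted p = 0.00309). Of the list genes, none but Kcnj6, Kcnj11, Gabbr1, Gabbr2, Sstr1 and Sstr3 lost a call under the other scalings, the ribosomal covariate, the block or a left-out sample. Calls were gained by 12 list genes. These were Cnr1, Adora1, Adra2a, Gna11, Gnai3, Gnaz and Abcc8 under another scaling or the covariate, and Pam, Adcy6, Kiss1, Gnai2 and, in delta against alpha cells, Kcnj11 only with a sample left out. The 13 same-numbered pairs correlated at -0.152 to 0.281, and the best correlate had the same number in 7 of 26 cases. The pairs numbered 2 were at 0.268 to 0.281. The numbers were not taken to pair the samples, and whether same-numbered alpha and beta cells came from one sort is not given in the sources used here. No detection floor can be given for Gal in the 9 samples without a known depth.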
